A study of Drosophila melanogaster with 46 samples.

Results

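Head RNA of wakeD2 flies was compared with head RNA of wild-type flies (WT) after genes of body tissues had been set aside. The members were chosen by 1 rule on WT values. A gene was set aside when its mean in the WT libraries of ZT4, ZT36 and ZT44, which hold RNA of the male reproductive tract and gut, was 2-fold or more above its mean in the other 7 WT libraries, with 0.5 CPM (counts scaled to a common library size) added to both means. This removed 787 of 17490 genes and left 16703, of which 9581 were expressed enough to be tested. Values of wakeD2 did not enter the rule, but the WT libraries did, so the number of genes that rose among the kept genes is partly set by it. Just inside the rule were CG42355, CG13326 and CG31391, with ratios of 1.98, 1.99 and 1.99, and just outside it were CG30416, Arp53D and CG11892, with ratios of 2, 2 and 2.02.

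The wakeD2 flies carried the D2 mutation of wide awake (wake) and had been backcrossed to the control strain over several generations. WT was Canton-S w1118 (iso1CJ), an isogenic strain that carries a mutant white gene. Both groups were 27 days old, lived in light-dark cycles and were collected every 4 h from ZT0 to ZT44, where ZT is the time in hours since the lights first came on. Each of the 12 wakeD2 and 10 WT libraries was 1 pool of heads from both sexes at 1 timepoint, and WT libraries of ZT28 and ZT40 were not analysed here. A further group, inc1 at Day 27 with a mutation in insomniac (12 libraries), is used for a direct comparison and for single levels. WT at Day 49 (12 libraries) is used for single levels. Both groups also enter the scaling of CPM values and an alternative fit to all 46 libraries.

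Wake is a clock output molecule. In clock neurons of the fly brain it raises the activity of the GABA-A receptor Rdl around dusk, which lowers neuronal excitability and promotes the onset of sleep, and flies that lack it fall asleep late and sleep less. The study used wakeD2 as a model of chronic sleep loss, and the comparison asks which head transcripts differ in level between such flies and WT.

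Transcripts of the targeted gene were present but fewer in every wakeD2 library. The gene wake (FBgn0266418, chromosome arm 3R, 22639808 to 22683827, Release 6) ranged between 35.3 and 52.3 CPM with a median of 44.5 CPM in wakeD2, against 65.7 to 79 CPM with a median of 72 CPM in WT. All 12 wakeD2 libraries lay below all 10 WT libraries. The log2 fold change was -0.71 ± 0.0428 (SE; edgeR quasi-likelihood test, adjusted p = 3.9e-09), so reads across this gene were reduced and not absent.

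Before any other result, the wakeD2 libraries stood apart from WT in their content of body tissue. Counts on the set-aside genes made up 0.0263% to 3.47% of a wakeD2 library (median 0.98%), against 0.0217% to 0.294% of a WT library (median 0.0267%). The only wakeD2 library at the level of most WT libraries was ZT36, with 0.0263%, and the highest were ZT12, ZT0 and ZT24, with 3.47%, 3.01% and 2.44%. The 23 accessory gland markers summed to 0.92 to 2178 CPM in wakeD2 and to 0.249 to 102 CPM in WT, and the 39 midgut markers to 56.4 to 2768 CPM in wakeD2 and to 47.3 to 264 CPM in WT. Of these, 17 and 20 were set aside. The 11 markers of eye, brain, muscle, antenna and female fat body (Yp1) summed to 73246 to 94089 CPM in wakeD2 and to 66348 to 82637 CPM in WT. None of them was set aside, and 10 were tested, all but the antennal carrier Obp83a. The sum includes the rhodopsin gene ninaE and the yolk protein gene Yp1, which were themselves higher in wakeD2. Total counts ran between 20037165 and 28176695 in wakeD2 and between 20118067 and 27569604 in WT, where 3 counts correspond to 0.15 and 0.149 CPM in the smallest library.

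The rule left some body-tissue genes among the kept ones. The accessory gland gene Acp54A1 had 0 to 48.6 CPM in wakeD2 and 0 to 0.757 CPM in WT, the trypsin epsilonTry had 0 to 15.7 CPM in wakeD2 and 0 to 0.556 CPM in WT, and both were at 0 in wakeD2 ZT36. For this reason the level in wakeD2 ZT36 is given beside some of the genes described. Counts are also given from a fit with the set-aside share of each library as a covariate. That share differs between the groups, so such a fit can also take up part of a difference that the groups have without it.

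Of the 9581 kept genes tested, 1156 (12.1%) were higher and 1441 (15%) were lower in wakeD2 at an adjusted p under 0.05, or 27.1% in either direction, against 31.8% of all 10260 genes tested. Most differences were small, with a median log2 fold change of 0.30 for the genes that rose and -0.17 for the genes that fell. A rise of at least 2-fold was seen for 293 genes, but 271 of them were at or below the highest WT library in wakeD2 ZT36. A fall of at least 2-fold was seen for 30 genes, and 28 of them were below every WT library in wakeD2 ZT36. With the share as a covariate, 225 genes (2.35%) were higher and 497 (5.19%) were lower, and without the 3 wakeD2 libraries of the highest share 450 were higher and 889 lower. In 79 kept genes (0.825%) the groups did not overlap, with every wakeD2 library above every WT library in 23 (0.24%) and below it in 56 (0.584%). All 79 passed the threshold, 76 of them also with the covariate. Over all 10260 genes tested, set-aside genes included, 17.7% were higher and 14% lower, 2.25% and 4.84% (7.1% in all) with the covariate, and 0.77% had no overlap, 0.224% above and 0.546% below WT.

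**Figure D1:**
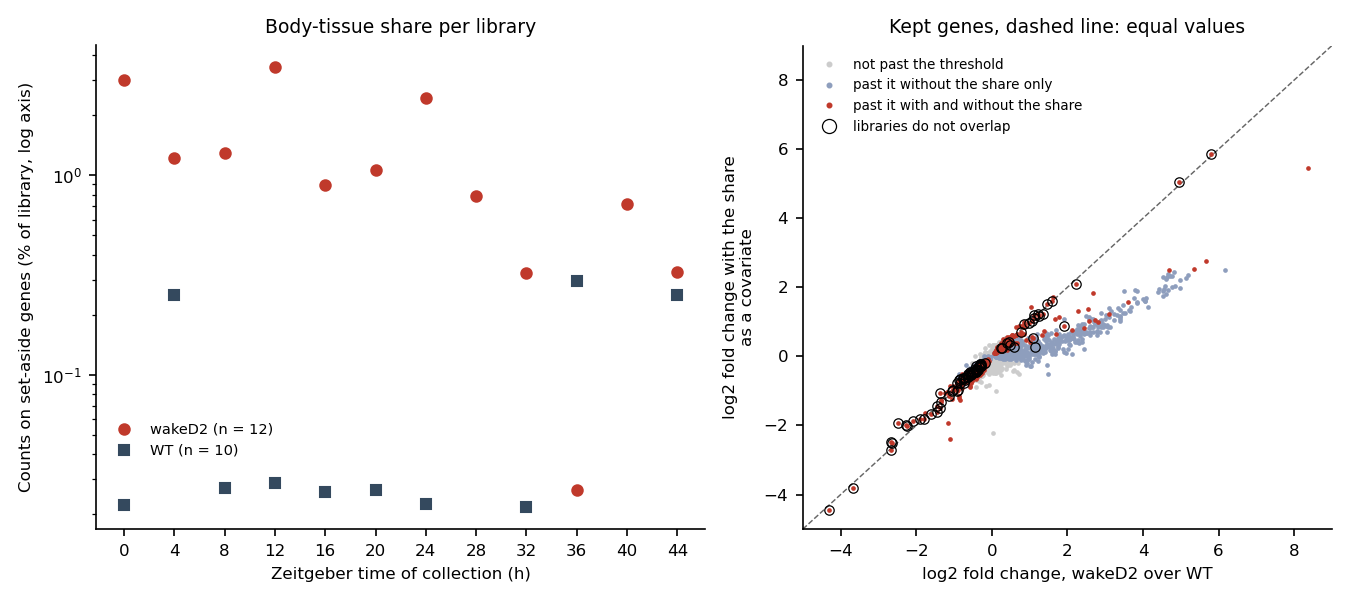
Left, the share of each library's counts on set-aside genes (percent, log axis) by zeitgeber time of collection (h), for 12 wakeD2 libraries (circles) and 10 WT libraries (squares); wakeD2 ZT36, at 0.0263%, is the only wakeD2 library at the level of most WT libraries. Right, the log2 fold change of each kept gene, wakeD2 over WT, without (x axis) and with (y axis) that share as a covariate; many rises shrink with the covariate, while most of the 79 genes whose libraries do not overlap (rings) lie near the dashed line of equal values.

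Among genes without overlap and with at least 5 CPM in either group, the largest rise was that of a gene close to the detection limit in WT. CG11893, of the ecdysteroid kinase-like (EcKL) family, ranged between 18 and 37.2 CPM in wakeD2 (median 31.1 CPM; 34.4 CPM in ZT36), against 0.183 to 0.797 CPM in WT (median 0.564 CPM). Its log2 fold change was 5.80 ± 0.135 (SE, adjusted p = 8.3e-15). It was also low in inc1 (0.0625 to 0.847 CPM) and ranged between 0.674 and 1.59 CPM in WT at Day 49, and the highest library outside wakeD2 had 1.59 CPM.

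The next largest rise among these genes was that of white (w), which encodes a transporter subunit that carries pigment precursors into the cells of the eye. It had 7.13 to 15.8 CPM in wakeD2 (median 9.25 CPM), against 0.147 to 0.727 CPM in WT (median 0.243 CPM), a log2 fold change of 4.96 ± 0.288 (SE, adjusted p = 2.2e-09). The lowest WT values are at the level of 3 counts. The WT strain carries w1118, a mutant allele of this gene. Levels in inc1 were 5.6 to 11.4 CPM (median 7.05 CPM), and WT at Day 49 had a median of 0.155 CPM.

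The other rises without overlap included a lysosomal enzyme and a transmembrane protein. GILT3, a lysosomal thiol reductase of the GILT family, had 4.94 to 8.52 CPM in wakeD2 (median 5.87 CPM) and 0.959 to 1.92 CPM in WT (median 1.2 CPM), a log2 fold change of 2.24 ± 0.115 (adjusted p = 5.8e-10). The transmembrane protein gene kek2, with leucine-rich repeats, had 188 to 303 CPM in wakeD2 (median 250 CPM) and 97.7 to 147 CPM in WT (median 112 CPM), a log2 fold change of 1.12 ± 0.0704. Accessory gland and testis genes (Acp33A, Mst33A, spag4) lie on the other strand of kek2, and lncRNA:CR44496 lies on its own strand. The level of kek2 was 295 CPM in wakeD2 ZT36, and the part of reads from these genes in its values was not tested. The aquaporin family gene bib, named after its values were seen, had 11.3 to 16.4 CPM in wakeD2 and 5.73 to 8.25 CPM in WT, and lncRNA:CR13130, which overlaps it on the other strand, had 6.57 to 10.4 CPM in wakeD2 and 3.07 to 4.49 CPM in WT. The libraries were made with a kit that keeps strand, but the strand setting of the counting is not given in the sources used here, so reads of this pair cannot be told apart.

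CG43980 had 4.52 to 7.4 CPM in wakeD2 (median 5.98 CPM) and 1.27 to 2.72 CPM in WT (median 2.1 CPM). CG33301 had 4.69 to 12.5 CPM in wakeD2 (median 8.45 CPM) and 2.2 to 4.55 CPM in WT (median 3.2 CPM). Their log2 fold changes were 1.60 and 1.35, and in wakeD2 ZT36 both stood above every WT library of Day 27, at 6.52 and 8.5 CPM. In WT at Day 49 CG43980 had 1.23 to 2.65 CPM, while CG33301 had 0.0602 to 13.7 CPM, past the wakeD2 range on both sides. The antisense transcript asRNA:CR45046 had 49.1 to 89.6 CPM in wakeD2 and 20.2 to 48.4 CPM in WT (log2 fold change 1.26), and its locus overlaps 4 other genes. CG34148 on the same strand and CG31465 and P5CDh2 on the other strand also rose, with log2 fold changes of 0.65, 2.67 and 3.78, and the call of P5CDh2 ended with the covariate. The fourth, fit, a female-enriched fat body gene on the same strand, had 443 to 1064 CPM in wakeD2 and 268 to 1202 CPM in WT and did not pass the threshold (adjusted p = 0.0648). Qsox2, of the sulfhydryl oxidase family, had 6.76 to 29.9 CPM in wakeD2 and 5.21 to 6.66 CPM in WT. Its level was 6.99 CPM in wakeD2 ZT36 and its log2 fold change of 1.13 fell to 0.26 with the share as a covariate, so the call ended there.

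**Figure D2:**
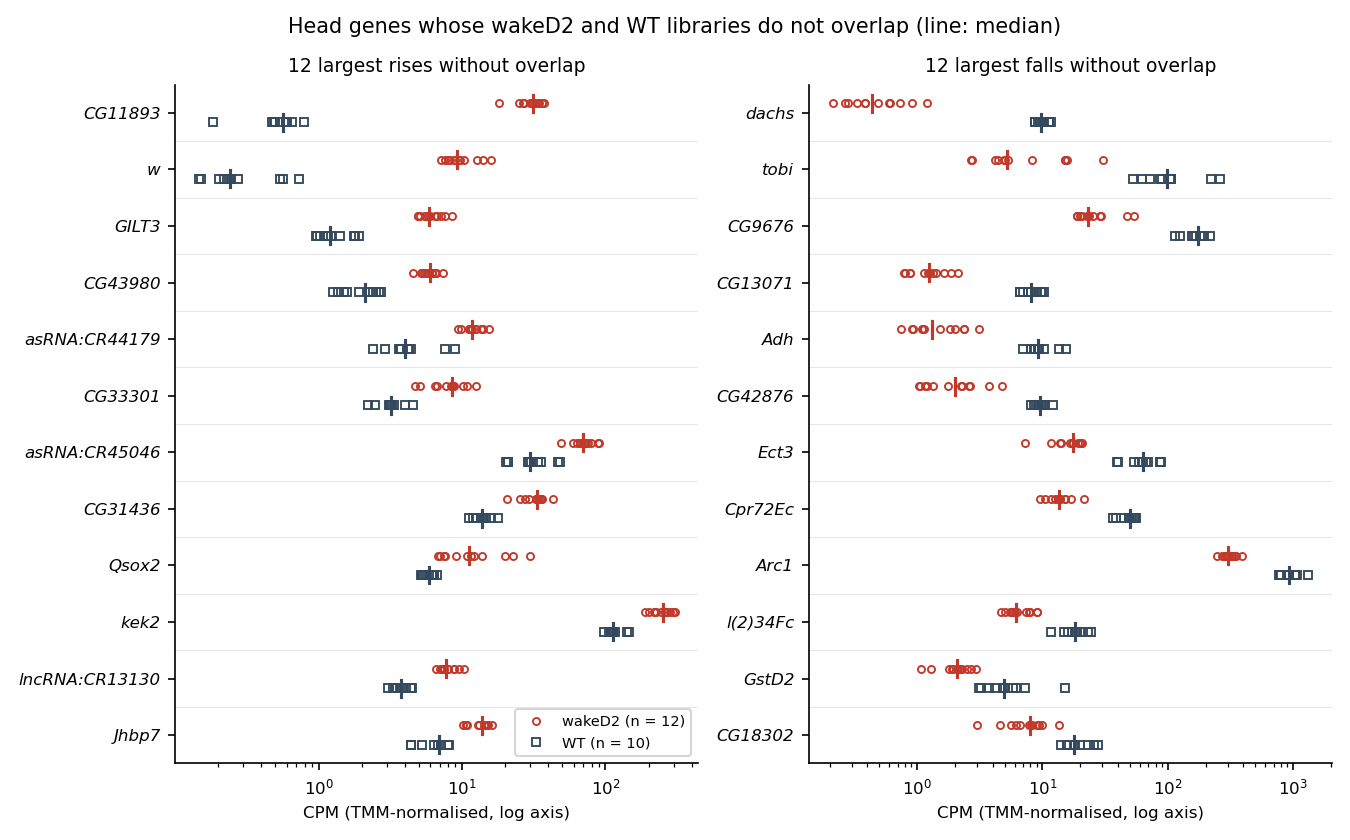
CPM (log axis) of the 12 largest rises (left) and the 12 largest falls (right) among kept genes whose wakeD2 and WT libraries do not overlap, 1 symbol per library, with 12 wakeD2 libraries (circles) above 10 WT libraries (squares) and the median as a line. CG11893, w, dachs and tobi show the widest gaps, and Qsox2 the narrowest among the rises.

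A stretch of 256 kb on chromosome arm 3R held several of these genes, 2.55 Mb from wake. Between Jhbp7 and asRNA:CR44179 (3R, 25237614 to 25493262) lie 43 kept genes that were tested, of which 11 were higher and 15 lower in wakeD2 (60.5%, against 27.1% of all kept genes), 17 (39.5%, against 7.54%) passed with the share as a covariate, and 7 (16.3%, against 0.825%) had no overlap. The stretch was picked after its values were seen. It carries a row of EcKL genes, and its members moved in both directions.

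Jhbp7, of a family of juvenile hormone binding proteins, had 10.2 to 16.3 CPM in wakeD2 and 4.42 to 8.18 CPM in WT, a log2 fold change of 1.06 ± 0.0471. CG31436, an EcKL gene, had 20.6 to 43.4 CPM in wakeD2 (43.4 CPM in ZT36) and 11.2 to 17.9 CPM in WT, a log2 fold change of 1.21 ± 0.0644. CG13659, also EcKL and separated from CG31436 only by CG31370 (log2 fold change 0.30), had 2.58 to 4.71 CPM in wakeD2 and 5.61 to 8.72 CPM in WT, a log2 fold change of -0.92 ± 0.0896. CG13658, which lies beside CG11893 on its other side, had 0.84 to 1.88 CPM in wakeD2 and 2.01 to 3.54 CPM in WT (log2 fold change -0.89), while CG10553 rose and CG10560 fell, with log2 fold changes of 0.59 and -0.66 and overlapping libraries. EcKL genes are similar in sequence, and how the counting treated reads that fit several of them is not given in the sources used here. At the end of the stretch, asRNA:CR44179 had 9.39 to 15.5 CPM in wakeD2 and 2.38 to 8.95 CPM in WT, on the other strand of CG5112, so these 2 cannot be told apart.

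In the same stretch lies tobi, which showed a large fall. It encodes an alpha-glucosidase and was named as a target of brain insulin in the fat body. Its level was 2.67 to 30.2 CPM in wakeD2 (median 5.18 CPM; 15.1 CPM in ZT36), against 52.7 to 262 CPM in WT (median 97.7 CPM), a log2 fold change of -3.67 ± 0.279 (adjusted p = 6.6e-08). The highest library was ZT12 in both groups, with 30.2 CPM in wakeD2 and 262 CPM in WT. It was followed by ZT8, ZT40 and ZT36 in wakeD2, with 15.6, 15.2 and 15.1 CPM, and by ZT36 in WT, with 223 CPM. In WT at Day 49 tobi had 5.63 to 166 CPM, which overlaps the wakeD2 range.

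The largest fall among genes without overlap was that of dachs, an unconventional myosin that acts downstream of the cadherin Fat in growth control and planar cell polarity. It had 0.212 to 1.19 CPM in wakeD2 (median 0.436 CPM), against 8.7 to 11.8 CPM in WT (median 9.74 CPM), a log2 fold change of -4.31 ± 0.239 (adjusted p = 1.4e-09). Levels in inc1 lay between the groups, at 2.67 to 5.09 CPM. Adh, the alcohol dehydrogenase, had 0.74 to 3.14 CPM in wakeD2 (median 1.32 CPM) and 7.04 to 15.4 CPM in WT (median 9.2 CPM), a log2 fold change of -2.65 ± 0.126. It overlaps Adhr on its own strand. In inc1 Adh had a median of 1.55 CPM, and wakeD2 and inc1 did not differ past the threshold (adjusted p = 0.192).

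Arc1, which encodes a capsid-forming protein derived from a retrotransposon and is known for transfer of RNA between neurons and their targets, had 247 to 389 CPM in wakeD2 (median 302 CPM), against 773 to 1320 CPM in WT (median 920 CPM). The log2 fold change was -1.60 ± 0.0779 (adjusted p = 2.6e-10). It was lower still in inc1, with 169 to 243 CPM, and wakeD2 was above inc1 by a log2 difference of 0.59 (adjusted p = 1.5e-07). CG9676, a serine protease of the trypsin type, had 18.8 to 53.5 CPM in wakeD2 and 114 to 217 CPM in WT (log2 fold change -2.68). Its highest wakeD2 value was that of ZT36.

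The other genes among the 12 largest falls without overlap were of several kinds. Cpr72Ec, a cuticle protein, had 9.49 to 21.4 CPM in wakeD2 and 36.7 to 55.9 CPM in WT, a log2 fold change of -1.79 ± 0.0819. Ect3, a beta-galactosidase, had 7.27 to 20.7 CPM in wakeD2 and 39.6 to 88.6 CPM in WT, a log2 fold change of -1.90 ± 0.0852. GstD2, a glutathione S-transferase, had 1.08 to 2.97 CPM in wakeD2 and 3.13 to 15 CPM in WT (log2 fold change -1.38), and reads may be shared with the similar gene GstD3. The uncharacterised genes CG13071 and CG42876 had medians of 1.24 and 2.01 CPM in wakeD2, against 8.1 and 9.61 CPM in WT, and log2 fold changes of -2.67 and -2.28. The gene l(2)34Fc and the lipase family gene CG18302 had medians of 6.16 and 8.01 CPM in wakeD2, against 18.3 and 18 CPM in WT, and log2 fold changes of -1.45 and -1.37. On the other strand, w, tobi, CG9676, Adh, Ect3 and l(2)34Fc overlap kirre, rha, CG4678, osp, Tk and asRNA:CR44850. On its own strand dachs overlaps CG43796, CheA29a and lncRNA:CR43604. How the counting treated reads of these overlaps is not given in the sources used here.

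**Figure D3:**
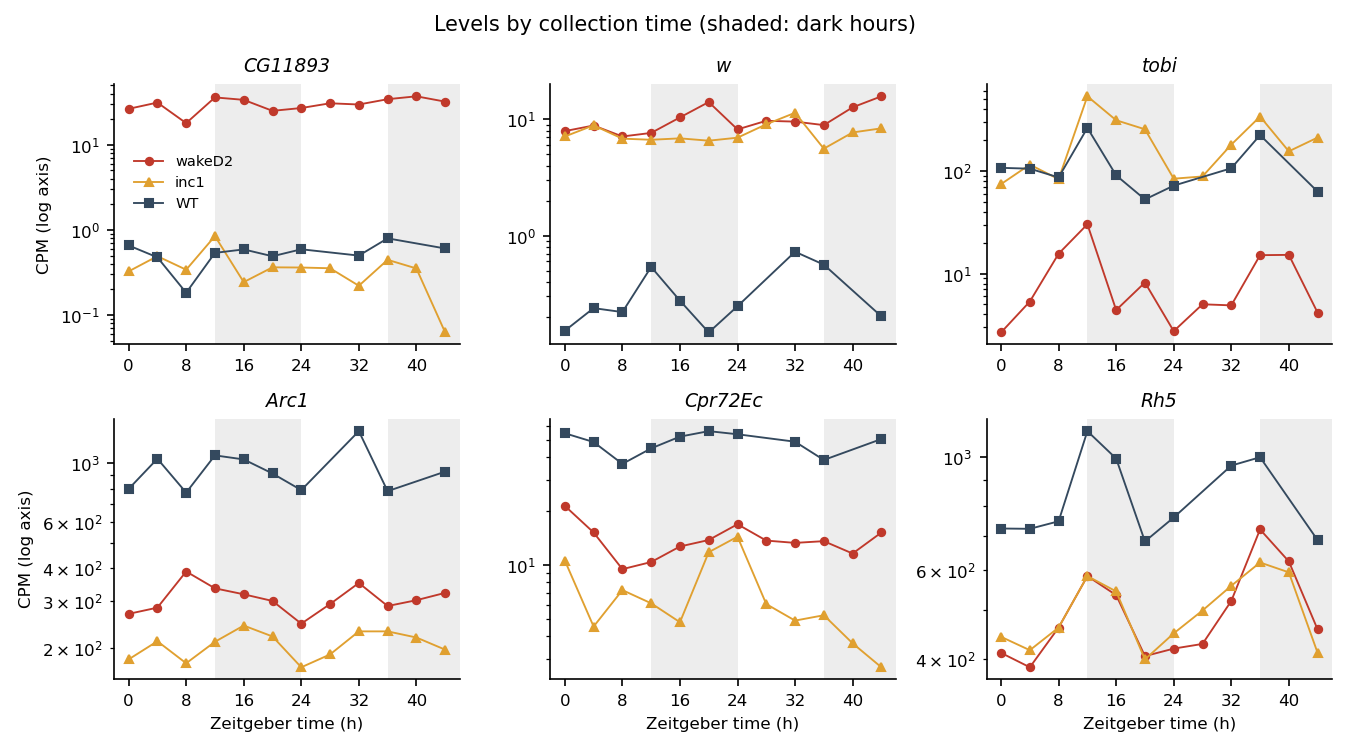
CPM (log axes) of 6 genes by zeitgeber time of collection (h; dark hours shaded) in wakeD2 (circles), inc1 (triangles) and WT (squares, ZT28 and ZT40 not used here), 1 library per point. CG11893 is high in wakeD2 alone, w is high in both mutants, tobi is low in wakeD2 alone, Arc1 and Cpr72Ec are low in both mutants and lowest in inc1, and Rh5 is low in both mutants and highest at ZT12 or ZT36 in each of these groups.

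Among genes of the visual system, some rhodopsins fell, while the main rhodopsin and Rh2 rose slightly. Of 29 kept phototransduction genes tested, 14 were lower (48.3%, against 15% of all kept genes) and 4 higher in wakeD2, and the median log2 fold change was -0.11, against -0.01 for all kept genes. Rh5, the blue-sensitive rhodopsin, had 386 to 720 CPM in wakeD2 (median 460 CPM), against 682 to 1123 CPM in WT (median 754 CPM), a log2 fold change of -0.75 ± 0.0463 (adjusted p = 5e-09). The highest wakeD2 value, 720 CPM, was that of ZT36, and the other 11 wakeD2 libraries were below every WT library. Rh4, a UV-sensitive rhodopsin, the lipid phosphatase gene laza and the cation channel trpl had log2 fold changes of -0.31, -0.39 and -0.32. The call of trpl ended with the share as a covariate (-0.23). The rhodopsin of the outer photoreceptors, ninaE, had 37201 to 46611 CPM in wakeD2 and 32702 to 41261 CPM in WT (log2 fold change 0.18, adjusted p = 0.0041). Of the rhodopsins named after their values were seen, Rh2 rose with and without the covariate (log2 fold change 0.15). Rh3 passed as lower only without the covariate (-0.13), and Rh6 did not pass (-0.07). With the share as a covariate 3 genes of the list were lower and 4 higher, and without the 3 wakeD2 libraries of highest share 9 were lower and 4 higher.

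Genes that supply the visual chromophore or the screening pigments fell in 10 of 19 cases (52.6%, against 15% of all kept genes), and 1 of the 19, w, rose. With the covariate 7 were lower and 1 higher, against 5.19% and 2.35% of all kept genes. The pteridine synthesis gene se (sepia) had 20 to 59.9 CPM in wakeD2 (median 40.5 CPM), against 42.8 to 120 CPM in WT (median 74.4 CPM), a log2 fold change of -0.98 ± 0.0472 (adjusted p = 2.6e-10). Pu, the GTP cyclohydrolase at the start of that pathway, had 87.5 to 126 CPM in wakeD2 and 151 to 182 CPM in WT, without overlap (log2 fold change -0.58). The pteridine transporter subunit bw, the partner of w, had a log2 fold change of -0.58. The gene rdhB, which makes the chromophore from its precursor and lies within 500 kb of wake, had one of -0.73. In contrast cd (cardinal), which acts late in ommochrome synthesis and lies 11.1 kb from wake, had 8.82 to 13.8 CPM in wakeD2 and 3.94 to 9.66 CPM in WT, a log2 fold change of 0.84 ± 0.125. In inc1 cd had only 1.35 to 3.37 CPM. The w transcript was high in both mutants and low in WT. Its part in the differences of pigment, chromophore and phototransduction genes cannot be told apart from that of the wake mutation and was not tested.

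Glial genes fell across most of their list. Of 23 kept genes tested, 16 were lower (69.6%, against 15% of all kept genes) and 1 was higher, with a median log2 fold change of -0.14. With the share as a covariate 5 were lower and 1 higher, and without the 3 wakeD2 libraries of highest share 9 were lower. The potassium-dependent sodium-calcium exchanger zyd of cortex glia had 64 to 98.1 CPM in wakeD2 (median 86 CPM), against 90.3 to 121 CPM in WT (median 111 CPM), a log2 fold change of -0.36 ± 0.0357. The gap junction gene Inx2, the cell surface gene wrapper and the glutamate transporter Eaat1 had log2 fold changes of -0.29, -0.29 and -0.23. Fewer cells of a type and less RNA per cell cannot be told apart in such head pools.

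In the pathway that Wake acts on, neither the receptor gene nor the GABA synthesis gene passed the threshold. The receptor gene Rdl itself had 243 to 448 CPM in wakeD2 and 257 to 364 CPM in WT (log2 fold change 0.04 ± 0.0499, adjusted p = 0.551), and the GABA synthesis gene Gad1 had 325 to 475 CPM in wakeD2 and 304 to 441 CPM in WT (log2 fold change 0.06 ± 0.0324, adjusted p = 0.201). Of 12 genes of GABA signalling 2 fell (16.7%, against 15% of all kept genes) and 1 rose (8.33%, against 12.1%), shares near those of all kept genes. The GABA transporter gene Gat, which is expressed in glia, had 48 to 82.8 CPM in wakeD2 (median 73.9 CPM), against 83.3 to 119 CPM in WT (median 91.5 CPM), without overlap and with a log2 fold change of -0.35 ± 0.0629 (adjusted p = 0.00069). The call ended with the share as a covariate (log2 fold change -0.27). The metabotropic receptor genes GABA-B-R1 and GABA-B-R3 had log2 fold changes of -0.17 and 0.09, and the call of GABA-B-R1 also ended with the covariate, where its log2 fold change was -0.13.

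Of 15 clock genes 1 fell (6.67%, against 15% of all kept genes) and 2 rose (13.3%, against 12.1%), and only the fall of cry passed with the share as a covariate. The light sensor gene cry had 53.6 to 247 CPM in wakeD2 (median 118 CPM) and 65.1 to 294 CPM in WT (median 151 CPM), a log2 fold change of -0.25 ± 0.0408 (adjusted p = 0.00031). The log2 fold changes of per, tim and Clk were -0.12, -0.10 and 0.06, and none of these 3 passed the threshold (adjusted p = 0.0618, 0.0878 and 0.296). Of 18 genes known for effects on sleep 1 rose (5.56%) and none fell, and of 10 nicotinic receptor subunits none passed the threshold.

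Of 26 genes of monoamine synthesis, transport and reception 8 fell (30.8%, against 15% of all kept genes) and 1 rose (3.85%, against 12.1%), and with the covariate 4 fell and 1 rose, against 5.19% and 2.35% of all kept genes. The serotonin receptor gene 5-HT2A had 48.6 to 88.5 CPM in wakeD2 and 63.6 to 123 CPM in WT, a log2 fold change of -0.40 ± 0.0478. The genes t (tan), which frees histamine in photoreceptors, Octbeta1R, an octopamine receptor, and SerT, the serotonin transporter, had log2 fold changes of -0.25, -0.25 and -0.24. Of 27 neuropeptide precursors 5 were lower (18.5%) and 4 higher (14.8%), near the shares of all kept genes, and 2 were lower and none higher under the covariate. Nplp3 and AstA had log2 fold changes of -0.65 and -0.23, and Pdf, the peptide of the morning clock neurons, had 63.4 to 98.6 CPM in wakeD2 and 71.8 to 106 CPM in WT (log2 fold change -0.21, adjusted p = 0.00488), a call that ended with the covariate.

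Detoxification and cuticle genes held more falls than rises. Of 70 cytochrome P450 genes 22 were lower (31.4%, against 15% of all kept genes) and 5 higher (7.14%, against 12.1%), with 12 and 1 under the covariate. Cyp313a1 had 155 to 332 CPM in wakeD2 and 354 to 471 CPM in WT, without overlap (log2 fold change -0.84 ± 0.0849), Cyp4d21, also called sex-specific enzyme 1, had a log2 fold change of -0.62, and Cyp12a5 rose by 0.48 on the log2 scale. Of 28 glutathione S-transferases 9 were lower (32.1%) and 2 higher, with 5 and none under the covariate, and of 22 cuticle proteins of the Cpr family 11 were lower (50%) and 2 higher, with 6 lower and none higher under the covariate. The median log2 fold change of the cuticle list was -0.29.

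Products of the fat body around the brain and markers of sex moved in both directions. The yolk protein genes, expressed in the female fat body, were higher in wakeD2. Yp3 had 21842 to 29308 CPM in wakeD2 and 16590 to 25697 CPM in WT (log2 fold change 0.36 ± 0.0617), and Yp1 and Yp2 had log2 fold changes of 0.32 and 0.36. The noncoding RNAs roX1 and roX2, which mark the male X chromosome for dosage compensation, were lower. The transcript lncRNA:roX1 had 447 to 634 CPM in wakeD2 and 679 to 837 CPM in WT, without overlap (log2 fold change -0.45 ± 0.043, adjusted p = 1.2e-06), lncRNA:roX2 had a log2 fold change of -0.48, and the helicase gene mle one of -0.17. Of 14 genes of dosage compensation and sex 6 were lower (42.9%, against 15% of all kept genes) and none higher. The number lower was 3 with the covariate, 3 without the 3 WT libraries of the rule and 3 without the 3 wakeD2 libraries of highest share. The pools held both sexes, the male tract genes that were set aside were higher in most wakeD2 libraries, and the part of the sex ratio of the pools in these values was not tested.

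Other fat body, lipase and hormone genes also differed. Fbp1, a receptor for larval storage proteins, had 8.38 to 15.2 CPM in wakeD2 and 1.33 to 12.2 CPM in WT (log2 fold change 1.62 ± 0.217, adjusted p = 5.2e-05). The storage protein gene Lsp2 had 260 to 871 CPM in wakeD2 and 376 to 1131 CPM in WT (log2 fold change -0.62), a call that ended with the covariate. The lipase family gene sxe2, sex-specific enzyme 2, had 65.2 to 144 CPM in wakeD2 and 146 to 193 CPM in WT, without overlap (log2 fold change -0.88 ± 0.0938). The juvenile hormone epoxide hydrolases Jheh1, Jheh2 and Jheh3, which break the hormone down, had log2 fold changes of -0.20, -0.27 and -0.22. Of 15 insulin and Akh genes 3 were higher (20%, against 12.1% of all kept genes) and 2 lower (13.3%, against 15%), with 1 and 1 under the covariate.

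Among immune and stress lists, Toll and Imd recognition and Turandot genes held more falls than all kept genes in the fit without the covariate. Of 26 antimicrobial peptide genes 2 fell (7.69%, against 15% of all kept genes) and 1 rose (3.85%, against 12.1%). Drsl5, a drosomycin-like peptide, had 27.7 to 54.7 CPM in wakeD2 and 44.9 to 211 CPM in WT (log2 fold change -1.04 ± 0.145), and Drsl4 had a log2 fold change of -0.70. Of 29 genes of Toll and Imd recognition 8 fell (27.6%) and none rose, and 1 fell under the covariate. Of 4 Turandot stress genes 2 fell, with and without the covariate. TotA, a humoral stress gene, had 98.5 to 406 CPM in wakeD2 and 202 to 489 CPM in WT (log2 fold change -0.57, adjusted p = 0.0137). Heat shock proteins were called in 3 of 16 cases, 2 higher (12.5%) and 1 lower (6.25%), and in none under the covariate.

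Genes of energy metabolism and protein turnover held mostly rises in the fit without the covariate. Of 64 nuclear genes of oxidative phosphorylation 22 rose (34.4%, against 12.1% of all kept genes) and none fell, with 6 and 1 under the covariate, and of 34 proteasome genes 11 rose and 1 fell, with none in either direction under the covariate. Of 76 cytosolic ribosomal proteins 15 rose (19.7%), with 3 under the covariate, 1 without the 3 WT libraries of the rule and none without the 3 wakeD2 libraries of highest share. Some members are testis forms of these complexes. ND-49L had 0.0945 to 9.22 CPM in wakeD2 and 0.0978 to 0.835 CPM in WT, and Rpt6R had 0.0472 to 8.48 CPM in wakeD2 and 0.0978 to 0.757 CPM in WT, with the lowest wakeD2 value of both in ZT36. SdhD, the membrane anchor of succinate dehydrogenase, rose also with the covariate, with 106 to 125 CPM in wakeD2 (120 CPM in ZT36) and 87.7 to 111 CPM in WT (log2 fold change 0.23 ± 0.0259). Of 25 muscle genes 7 rose and 1 fell, against 1 and 4 under the covariate.

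**Figure D4:**
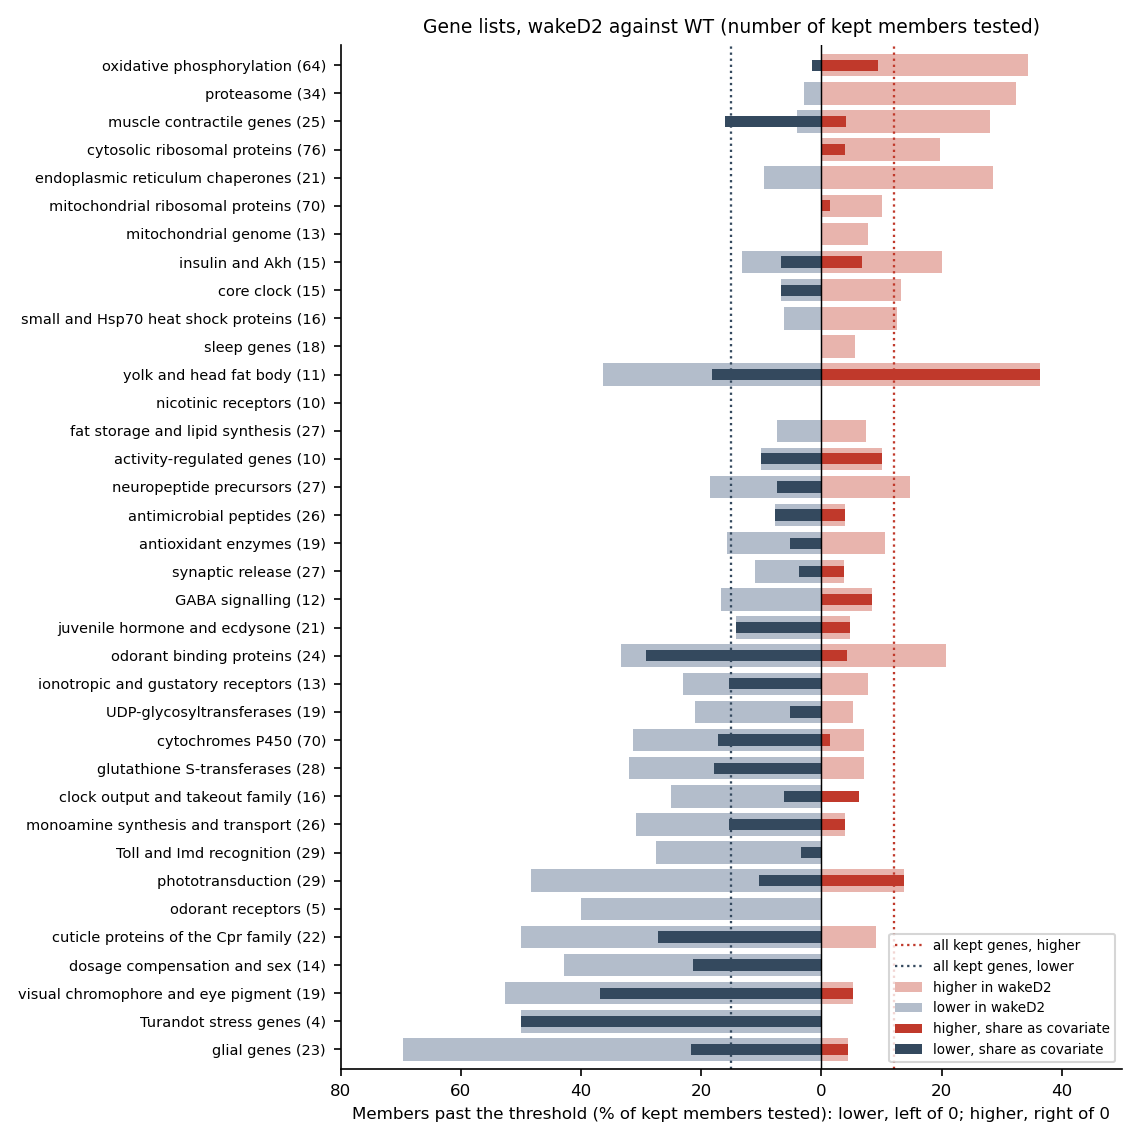
Percent of kept members tested that were higher (right of 0) or lower (left of 0) in wakeD2 at an adjusted p under 0.05, for each gene list of at least 4 tested members (number in brackets), in wide pale bars without and narrow dark bars with the set-aside share as a covariate. Dotted lines mark all kept genes, 12.1% higher and 15% lower; glial genes, with 69.6% lower, reach furthest to the left, and the pale bars of oxidative phosphorylation and proteasome genes shrink under the covariate.

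Genes that lie near wake on chromosome arm 3R were examined by their distance. Of 104 kept genes within 500 kb of wake 21 were higher and 20 lower (39.4%, against 27.1% of all kept genes), and 18.3% passed with the share as a covariate, against 7.54%. Within 500 kb 2 genes (1.92%) had no overlap, wake itself and Usp12-46. Within 3 Mb of wake the shares were 37.2% and 15.6% of 596 genes, and 18 genes (3.02%) had no overlap, against 16 of 1742 genes (0.918%) on the rest of 3R. These 18 include wake itself and the 7 genes of the 256 kb stretch that was picked after its values were seen. A stretch of chromosome arm 2L from 8 to 17 Mb, chosen after its values were seen, had 34% of 680 genes called, 13.1% under the covariate and 14 without overlap (2.06%). Backcrossing leaves a piece of the donor chromosome around a selected mutation, and sequence differences between the strains were not examined here. Linked variants and effects of the mutation therefore cannot be told apart for the genes near wake on 3R. The 2L stretch lies on another chromosome than wake, and the source of its differences was not tested.

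Close to wake, the deubiquitinase gene Usp12-46 had 22.2 to 28.2 CPM in wakeD2 and 30.8 to 37.8 CPM in WT, without overlap (log2 fold change -0.43 ± 0.0338). CG7029, which shares exons or introns with it on the same strand, had 276 to 408 CPM in wakeD2 and 388 to 488 CPM in WT (log2 fold change -0.42). CG13833 had 7.69 to 21.8 CPM in wakeD2 and 21.5 to 53.1 CPM in WT (log2 fold change -1.23 ± 0.0765). The largest fitted rise there was that of Tpl94D, a sperm chromatin gene at 0 to 17.1 CPM in wakeD2, 0 CPM in wakeD2 ZT36 and 0 to 0.0938 CPM in WT.

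**Figure D5:**
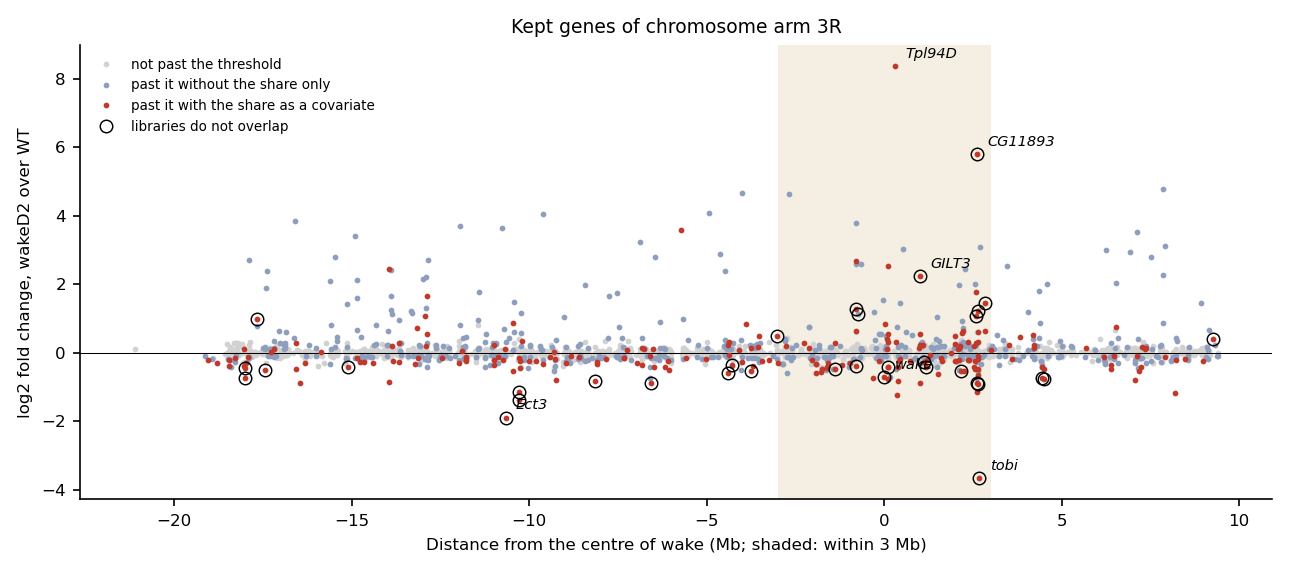
Log2 fold change, wakeD2 over WT, of each kept gene on chromosome arm 3R by its distance from the centre of wake (Mb; within 3 Mb shaded), coloured by whether it passed the threshold with the set-aside share as a covariate, without it only, or in neither fit. Rings mark genes whose libraries do not overlap. In the shaded part 18 of 596 genes have one, against 16 of 1742 on the rest of the arm. The 18 include wake itself and 7 genes of the stretch picked after its values were seen. Tpl94D is a sperm gene left by the rule.

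Since wakeD2 and inc1 are compared with the same WT libraries, they were compared with each other directly. Of 9993 kept genes tested in these libraries 1889 were higher and 1949 lower in wakeD2 than in inc1 (38.4%, against 37.8% of all genes tested there), and 20.7% were called with the share as a covariate. Of the 79 genes that did not overlap with WT, 62 also differed between wakeD2 and inc1 and 17 did not pass the threshold. CG11893, tobi, dachs, GILT3, CG42876 and wake differed strongly, with log2 differences between wakeD2 and inc1 of 6.38, -4.45, -2.81, 1.80, -2.26 and -0.57. Rh5 and l(2)34Fc had log2 differences of -0.01 and -0.05 (adjusted p = 0.93 and 0.785). In inc1 CG13071 was lower still than in wakeD2, with a median of 1.24 CPM in wakeD2 and 0.141 CPM in inc1.

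An interaction between group and a 24 h rhythm was fitted to ask whether the difference from WT depended on the hour. No gene passed (edgeR quasi-likelihood test, 0 of 10260, smallest adjusted p = 1), and 160 genes (1.56%) had an unadjusted p under 0.05. That share is below what chance alone would give at this threshold. The test was thus conservative here, and the lack of calls does not show that rhythms were equal. Each hour has at most 2 libraries per group, and the size of rhythm difference that this design can detect was not tested.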

How the data were processed

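The authors extracted RNA with TRIzol, made stranded mRNA libraries, aligned single reads with STAR 2.4.2a and counted them with featureCounts, per the labels and the study's methods (bcl2fastq 2.20 in the submitters' processing notes). They deposited raw counts of 17490 genes, which were used as deposited. The handling of strand and of reads with several positions is not given in the sources used here. Symbols and positions came from an Ensembl annotation of Release 6 (17288 matched).

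Genes with at least 1 CPM in at least 10 of the 22 libraries were tested with edgeR 4.0.16 (R 4.3.3) by the quasi-likelihood test with TMM factors, a model of group and 6 times of day, Benjamini-Hochberg adjustment over all 10260 genes and a threshold of 0.05. The SE given is the absolute log2 fold change divided by the square root of the F statistic of this test. DESeq2 1.42.0 was an alternative. The study's filter removes genes under 1 CPM in more than 28 libraries of its whole dataset and was also an alternative, since it would drop genes present in 1 group only. CPM values are TMM-normalised over all 46 libraries and carry no correction for gene length. Tests were checked on simulated data. Libraries are single pools at different hours, so p-values measure the spread between these pools. No 2 libraries of a group agreed within sampling noise (smallest chi-square per degree of freedom 5.94). Floors of 3 counts cover counting error only.

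The members and the gene lists were chosen with earlier results of these data known. Genes were named by a rule: wake, the 12 largest rises and falls without overlap and with at least 5 CPM, up to 4 members per list with the smallest adjusted p, and called genes within 500 kb of wake. Genes outside the rule are marked in the text or given as members that did not pass. Figures were drawn with matplotlib 3.10.9.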

Additional observations from a re-analysis of the deposited data

Results flagged for a closer look

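Among the genes named, 7 had 1 WT library far from the other 9 by the gap of the highest or lowest value, a test that chance meets in about 1 of 20 groups. CG11893 had 0.183 CPM in WT ZT8, against 0.477 CPM in the next lowest WT library, far under the 18 to 37.2 CPM of wakeD2. CG42876 had 12.2 CPM in WT ZT12, against 10.2 CPM in the next highest. GstD2 had 15 CPM and Drsl5 211 CPM in WT ZT36, against 7.31 and 92.3 CPM in the next highest, and WT ZT36 is 1 of the 3 WT libraries used by the rule. Fbp1 had 12.2 CPM in WT ZT24, against 5.42 CPM in the next highest, and this is the only WT library inside the range of wakeD2. The glial gene wrapper had 81.4 CPM in WT ZT8, against 92.3 CPM in the next lowest. The accessory gland gene Acp54A1 had 0.757 CPM in WT ZT44, against 0.281 CPM in the next highest.

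In WT at Day 49, which is in no comparison here, the library of ZT32 had 0.361% of its counts on the set-aside genes, against at most 0.084% in the other libraries of that group.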

How the results depend on the processing

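The count of kept genes called, 2597 (1156 higher, 1441 lower), stayed within 1.5 times under RLE size factors, DESeq2, the study's filter, a fit to all 46 libraries, removal of the set-aside genes before normalization, set-aside rules of 1.5-fold and 3-fold, and without the 3 WT libraries used by the rule. It was 5023 without a filter on low counts (2848 higher, 2175 lower), 1205 without time of day (676 and 529), 1513 with cosine and sine terms (753 and 760), 722 with the set-aside share as a covariate (225 and 497), 1574 on the first sampling day alone (744 and 830) and 5 on the second (1 and 4). On the second day WT ZT28 and ZT40 are absent, so that fit rests on fewer libraries than that of the first day. The low count on the second day does not show whether the differences recurred. With settings chosen after seeing the data the count of kept genes also changed. It was 1339 without wakeD2 ZT0, ZT12 and ZT24 (450 and 889) and 468 with the log2 share as a covariate (170 and 298). Against inc1, 2066 genes were called with the share as a covariate and 3838 without it. The interaction gave 0 genes under each setting run. With each collection timepoint taken as a replicate block, the fit called 2344 genes (1023 higher, 1321 lower). The pairing was checked over the 4 hours that both groups have 2 libraries of, and the correlations ranged between -0.376 and 0.201. The check gave no steady sign of pairing by timepoint, and 4 hours are too few to exclude it. Among 98 genes named, 53 kept their direction and side of the threshold in all settings but the second day alone. Reversed log2 fold changes were those of Rdl, -0.01 without a filter and -0.07 on the second day, Clk, -0.01 with the share and -0.02 with the log2 share, and Rpt6R and ND-49L, -0.02 and -0.15 with the log2 share. The cause of these changes was not tested. Each hour has 1 or 2 libraries per group, which limits any statement on single hours.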

Other observations

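Genes of the antenna gave several falls that were not described above. Of 24 odorant binding proteins tested 8 were lower (33.3%, against 15% of all kept genes) and 5 higher (20.8%, against 12.1%) in wakeD2, with 7 lower and 1 higher under the covariate. Obp19d had 566 to 797 CPM in wakeD2 and 803 to 940 CPM in WT, without overlap (log2 fold change -0.32 ± 0.0293, edgeR adjusted p = 6.9e-07), and Obp57a had a log2 fold change of -0.44. The acid-sensing ionotropic receptors Ir75a and Ir75b had medians of 17 and 9.22 CPM in wakeD2, against 24.3 and 15.4 CPM in WT, and log2 fold changes of -0.44 and -0.63. Of 13 ionotropic and gustatory receptors 3 were lower (23.1%) and 1 higher (7.69%), with 2 and none under the covariate, and of 5 odorant receptors 2 were lower, none of these 2 under the covariate.

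The neuronal and nutrient genes that were called differed by small amounts. Of 27 genes of synaptic release 3 were lower (11.1%, against 15% of all kept genes) and 1 higher (3.7%, against 12.1%). The synaptic vesicle protein gene nSyb had 1011 to 1927 CPM in wakeD2 and 1025 to 1571 CPM in WT (log2 fold change 0.16), and the endocytic adaptor AP-2alpha had 162 to 188 CPM in wakeD2 and 183 to 202 CPM in WT (log2 fold change -0.12). Of 10 activity-regulated genes kay fell (10%) and cbt rose (10%), by log2 fold changes of -0.10 and 0.15. The shares of the synaptic release and activity-regulated lists were below those of all kept genes. The insulin-like peptide gene of the fat body, Ilp6, had 69 to 136 CPM in wakeD2 and 63.2 to 119 CPM in WT (log2 fold change 0.24), and the transcription factor foxo had a log2 fold change of -0.11. Other genes overlap kay, cbt and Ilp6 on the opposite strand, so their reads cannot be told apart where the strand setting of the counting is not known.

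The remaining lists are to be read against the 12.1% higher and 15% lower of all kept genes, and several lie near these shares. Of the clock output and takeout genes 4 of 16 (25%) were lower and none higher, 6 of 21 endoplasmic reticulum chaperones (28.6%) were higher and 2 (9.52%) lower, 7 of 70 mitochondrial ribosomal proteins (10%) were higher and none lower, and 1 of 13 genes of the mitochondrial genome was higher. Of 19 UDP-glycosyltransferases 4 were lower (21.1%) and 1 higher, of 19 antioxidant enzymes 3 were lower (15.8%) and 2 higher (10.5%), and of 27 genes of fat storage and lipid synthesis 2 were lower and 2 higher (7.41% each). Under the covariate the calls were 1 higher and 1 lower for clock output, 1 higher for mitochondrial ribosomal proteins, 1 lower each for UDP-glycosyltransferases and antioxidant enzymes, and none for the chaperones, the mitochondrial genome and fat storage.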
